A study of Mus musculus with 6 samples.

Results

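The Rab GTPase family was followed in RNA-seq libraries of mouse osteoclasts grown with or without verapamil. Members were the genes whose symbol is Rab, a number and optional lower-case letters and digits, with at least 10 counts summed over the 5 libraries used. Of 66 genes with such a symbol, 62 met the minimum, out of 16775 genes in the table. Rab9b, Rab25, Rab37 and Rab39b fell under it, with 2, 2, 6 and 6 counts in all. The 62 members were 52 genes for Rab GTPases and 10 genes named after a Rab that encode a partner protein: Rab11fip1 to Rab11fip5, Rab3gap1, Rab3gap2, Rab3il1, Rab3ip and Rab5if.

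The verapamil group held 3 libraries of osteoclasts treated with verapamil, a blocker of L-type calcium channels, and the control group held 2 libraries of osteoclasts without it. Both groups came from marrow of wild-type mice, whose macrophages were expanded in M-CSF at 30 ng/ml and then fused into osteoclasts with RANKL at 50 ng/ml, so that all libraries share both cytokines. The sample titles give day 5, the protocol describes medium changes up to day 7, and the dose and timing of verapamil are not in the labels. Control replicate 2 was not analysed here, and the labels do not tell whether the replicates are different animals or cultures; each p-value therefore reflects the spread of these libraries alone, which may be technical.

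Rab proteins are small GTPases that give each membrane compartment its identity. In the GTP-bound state, set by an exchange factor, a Rab recruits effectors such as tethers and motors, and a GTPase-activating protein ends that state, after which GDI proteins extract the Rab from the membrane. An osteoclast resorbs bone by delivering late endosomes and lysosomes to a ruffled border, a step for which Rab7 is known, and Rab3d is a known regulator of its secretion.

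The libraries held 20202340 to 21494523 counts. Across all genes tested, the 2 control libraries correlated less with each other (Pearson r of log2 CPM 0.9718) than the verapamil libraries did (0.9913 to 0.9929). Control replicate 1 stood farther from the verapamil libraries (0.9376 to 0.9467) than control replicate 3 did (0.9615 to 0.9627). The osteoclast markers were present in every library, and their summed level was 3304 to 3454 CPM with verapamil, against 7025 to 7703 CPM in control libraries, with 1 of 10 markers higher and 7 lower by the test. The 12 macrophage markers summed to 6012 to 6185 CPM with verapamil and 8993 to 10050 CPM in control libraries (1 higher, 8 lower). The stromal or osteoblast markers summed to 421 to 439 CPM with verapamil and 979 to 1168 CPM in control libraries (7 of 9 tested lower). Dendritic cell markers summed to 121 to 127 CPM with verapamil and 53.7 to 70.0 CPM in control libraries, with Itgax higher and Zbtb46 lower. Megakaryocyte or platelet markers summed to 0.887 to 1.03 CPM with verapamil and 20.7 to 33.4 CPM in control libraries. Most of that sum was Pf4 (mean 0.783 CPM with verapamil and 26.4 CPM in control libraries), while Itga2b and Gp9 stayed under 1 CPM in every library. Neutrophil markers summed to 2.56 to 3.10 CPM with verapamil and 3.37 to 7.42 CPM in control libraries. B cell, T or NK cell and erythroid markers stayed under 1 CPM in every library, with Hba-a1, an erythroid marker, at 0 throughout. In bulk RNA, fewer cells of a type and less RNA per cell cannot be told apart, and the part of these shifts in the Rab results below was not tested.

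Of the 62 members, 59 passed the filter on low counts and were tested, and 7 were higher and 3 lower with verapamil at an adjusted p under 0.05. The higher genes were Rab7, Rab7b, Rab9, Rab34, Rab22a, Rab19 and Rab3gap2, and 4 of them belong to the late endosome and lysosome group of 5. Such groups were assigned by hand, and the members were chosen with earlier results of these data known. The lower genes were Rab38, Rab30 and Rab3b, of which Rab38 and Rab3b belong to the secretory and lysosome-related group. The 10 genes are 16.9% of the members tested, against 25.4% of all 12619 genes tested (9.99% higher and 15.4% lower), so the family as a whole was called no more often than the background. The groups did not overlap at 37 members (62.7%), against 56.7% of all genes tested. The median log2 fold change of the members was 0.11, beside -0.01 over all genes tested, and 44 members lay within 0.5 of 0. Here and below, fold changes are verapamil over control, and p-values are edgeR quasi-likelihood p-values adjusted by Benjamini-Hochberg over all genes tested.

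**Figure D1:**
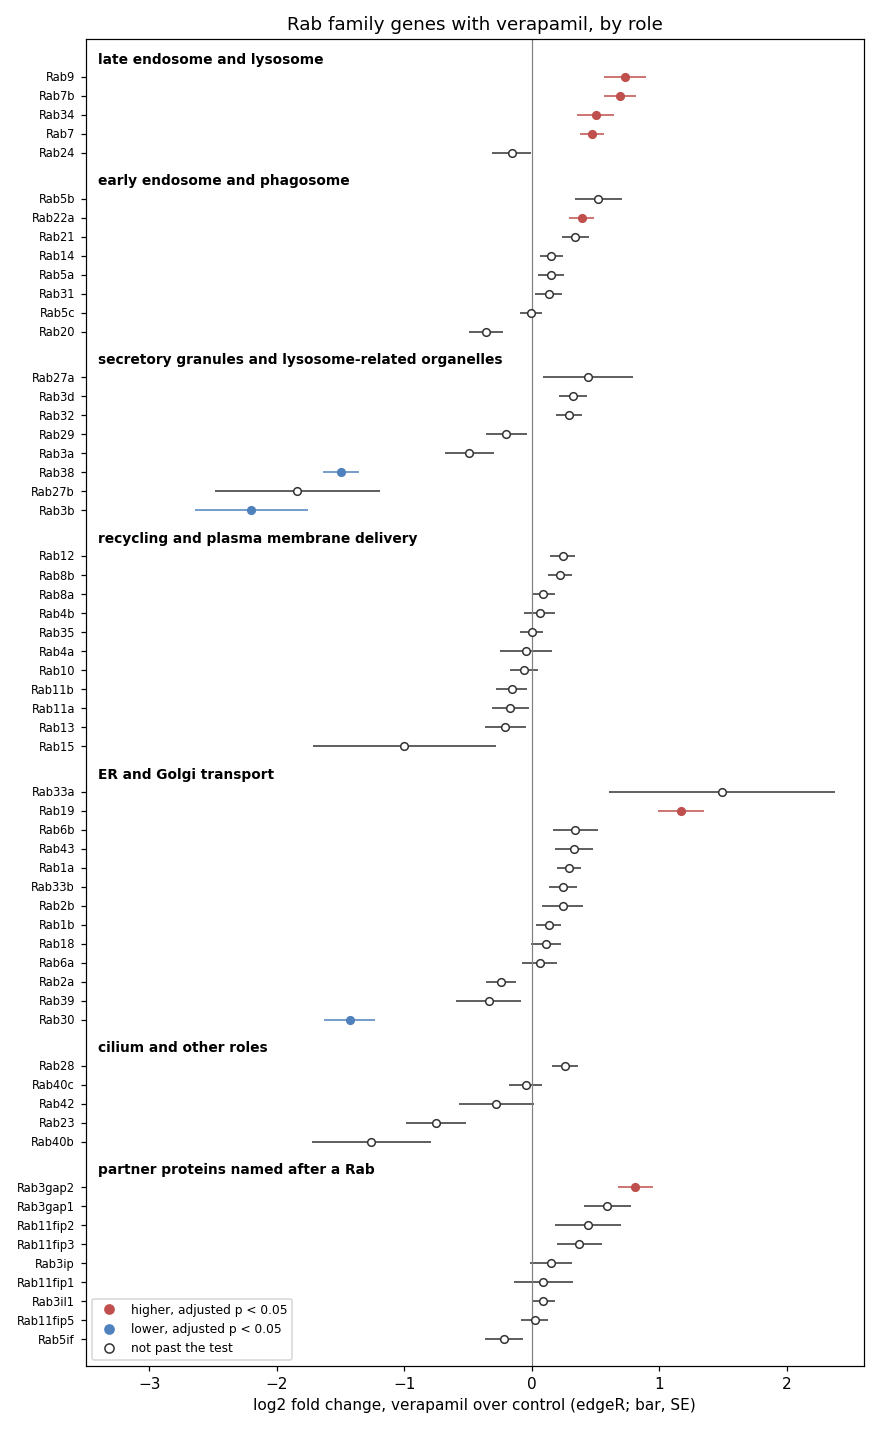
Log2 fold change of each tested member, verapamil (n = 3) over control (n = 2), in rows grouped by role, with a bar of 1 SE. Filled points passed the test at an adjusted p under 0.05. Rab19, Rab3gap2, Rab22a and 4 late endosome and lysosome genes stand to the right, and Rab38, Rab30 and Rab3b stand to the left.

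The spread between the controls limits these counts. At 28 of the 59 members, the gap between the 2 control libraries exceeded the difference between the group means. The median size of that gap was 0.27 on the log2 scale, whereas the median range of the 3 verapamil libraries was 0.13. Scaled by the upper quartile, which moves the median of all genes to -0.13, the split of calls was 4 higher and 4 lower, and the higher share of calls over all genes went to 28.2%, beside 39.4% with TMM. The count of higher members was 3, 3 and 1 without verapamil replicate 1, 2 and 3, and that of lower members was 2, 3 and 2. Those fits called 11.8%, 12.4% and 11.6% of all genes. A fit without a control replicate leaves 1 control library, and calls rose across all genes. Adjusted p-values given below for such fits are to be read beside that rise, which is given at the end with the counts.

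Per length, Rab7 was the most abundant member, and 10 GTPase genes held 64.5% to 68.5% of the summed RPKM of all Rab GTPases in each library. RPKM here is CPM divided by the kilobases of merged exons. Rab7 averaged 333 ± 10.9 RPKM with verapamil and 240 ± 10.3 RPKM in control libraries (SD, n = 3 and 2). Rab5c, which drives early endosome fusion together with Rab5a and Rab5b, followed at 141 ± 1.65 RPKM with verapamil and 142 ± 4.55 RPKM in control libraries. Rab1b and Rab1a, which act between the endoplasmic reticulum and the Golgi, and Rab8b, which delivers vesicles to the plasma membrane, came next and lay close together. Their mean levels were 91.8, 90.2 and 87.6 RPKM with verapamil and 83.8, 73.9 and 75.4 RPKM in control libraries. Rab31, an early endosome Rab, Rab2a, of early secretory traffic, Rab10, of the secretory route to the surface, and Rab5b made up the next tier. Their means were 72.0, 57.1, 56.9 and 57.0 RPKM with verapamil and 65.6, 67.7, 59.1 and 39.7 RPKM in control libraries, so Rab5b took a lower place in the control order. Rab5if, a partner protein, was the tenth gene at 35.9 RPKM with verapamil and 41.9 RPKM in control libraries.

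The summed level per length of the GTPases was 1546, 1494 and 1519 RPKM with verapamil, against 1321 and 1346 RPKM in control libraries. The late endosome and lysosome group took 31.0%, 29.9% and 30.2% of that sum with verapamil, against 24.9% and 24.6% in control libraries. The secretory and lysosome-related group took 3.97%, 3.81% and 3.91% with verapamil and 5.00% and 4.45% in control libraries. Both shares separated the groups without overlap, and most of the late endosome share is Rab7. The shares of the recycling, endoplasmic reticulum and Golgi, and ciliary groups were also lower with verapamil, without overlap. That of the early endosome group overlapped. The summed level of the secretory group itself overlapped, at 61.3, 56.9 and 59.5 RPKM with verapamil and 66.0 and 59.9 RPKM in control libraries.

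**Figure D2:**
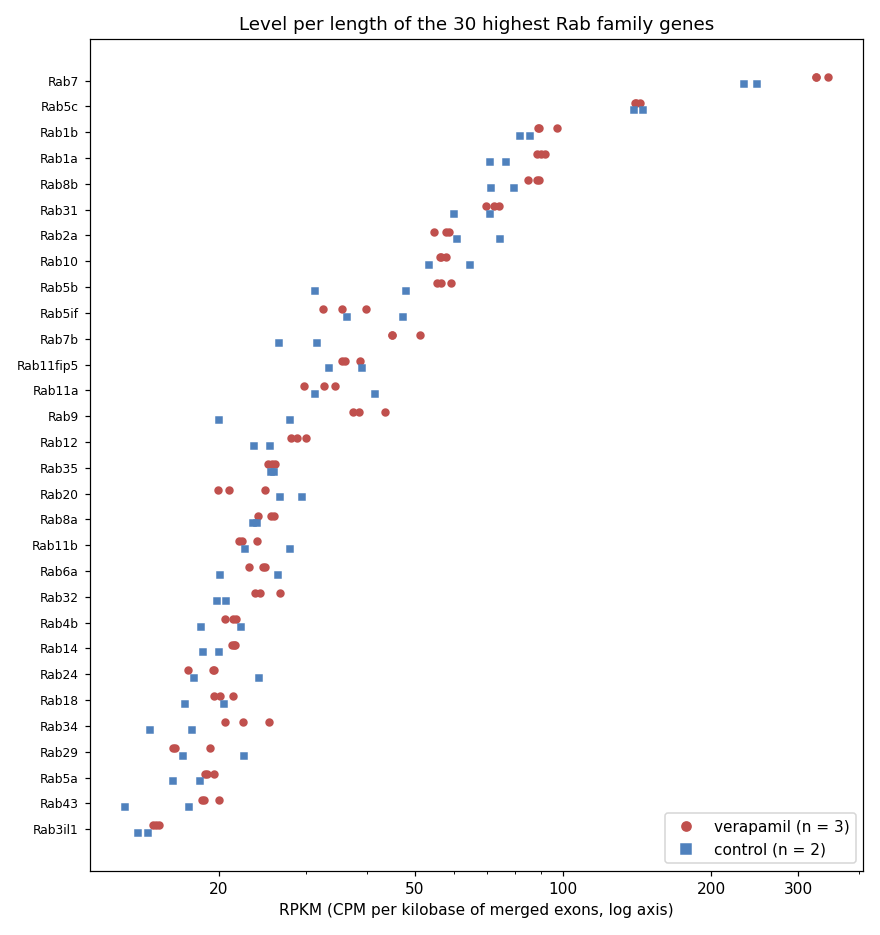
RPKM (log axis) of the 30 members with the highest mean level per length, with a circle for each verapamil library (n = 3) and a square for each control library (n = 2). Rab7 stands apart at the top, near 333 RPKM with verapamil and 240 RPKM in control libraries, and Rab5c overlaps between the groups.

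Rab7, Rab7b, Rab9 and Rab34 were each higher with verapamil in every library, by 1.39 to 1.66-fold of the control mean, and Rab24 was the member of the late endosome and lysosome group that did not pass the test. Rab7 recruits the machinery that fuses late endosomes with lysosomes, and it lies on the minus strand of chromosome 6 at 87999106 to 88045270 (GRCm38.p6). It had 903, 853 and 853 CPM with verapamil, against 608 and 646 CPM in control libraries. All 3 verapamil libraries stood well above both control libraries, and edgeR gave a log2 fold change of 0.47 (SE 0.0927, adjusted p = 0.0146). Of its exon bases, 7.82% overlap the gene model Gm5577, and 12.7% of its 50-mers also occur in other genes, among them the pseudogene Rab7-ps1, so a small part of its counts could be shared.

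Rab7b, which moves cargo between late endosomes and the trans-Golgi, had 208, 208 and 236 CPM with verapamil and 122 and 146 CPM in control libraries. The groups were separate, and edgeR gave a log2 fold change of 0.69 (SE 0.124, adjusted p = 0.0106). Its exons, on chromosome 1 at 131688681 to 131715443, overlap no other gene model. Rab9, which returns mannose 6-phosphate receptors from late endosomes to the trans-Golgi, had 76.1, 65.6 and 67.2 CPM with verapamil and 48.8 and 35.0 CPM in control libraries. Every verapamil library was above both controls, which differed between themselves, and edgeR gave a log2 fold change of 0.73 (SE 0.167, adjusted p = 0.0239). Rab9 lies on the X chromosome at 166457251 to 166479867, and 6.20% of its 50-mers recur in the pseudogene Rab9b-ps1.

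Rab34, known for lysosome positioning, macropinocytosis and ciliogenesis, lies on chromosome 11 at 78188427 to 78192193. It had 60.2, 49.2 and 53.4 CPM with verapamil, against 42.1 and 34.6 CPM in control libraries, and the groups did not overlap although the spread within each was wide. The fold change was 0.50 on the log2 scale (SE 0.143), with an adjusted p of 0.0477, the call nearest to the threshold among the members. Rab24, a Rab of the autophagic route, had 39.2, 34.9 and 39.4 CPM with verapamil and 48.6 and 36.0 CPM in control libraries. The groups overlapped, with a log2 fold change of -0.16 (SE 0.155, adjusted p = 0.471), which became 0.08 when control replicate 1 was left out and -0.36 (adjusted p = 0.0151) when control replicate 3 was. Of the exon bases of Rab24, 62.4% lie over Prelid1, so reads of those 2 genes may not be separable. Without verapamil replicate 1, 2 and 3, the adjusted p was 0.0900, 0.0831 and 0.0886 for Rab7, 0.0975, 0.0722 and 0.0824 for Rab9 and 0.162, 0.102 and 0.153 for Rab34, and Rab7b reached 0.0604 without verapamil replicate 3. With upper quartile scaling, Rab9 (adjusted p = 0.0604) and Rab34 (adjusted p = 0.134) were not called, nor was Rab34 with the stricter filter on low counts (adjusted p = 0.0542).

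The promoters of Rab7 and Rab9 are printed because both genes rose in the late endosome group. That of Rab3gap2, described further on, is printed because it alone holds the E-box core among the 7 called members with a promoter entry. These are RefSeq sequences of GRCm38.p6, from 250 bases before to 50 bases after an annotated start, read 5′ to 3′ on the gene's strand. Capitals mark the E-box with its flanks, GTCACGTG. Rab7 has 2 annotated starts. The window shown (chr6:88044968-88045267, minus strand) is that of the downstream start and lies within the gene span given above. The window of the upstream start (chr6:88045221-88045520) is not printed and also lacks CACGTG. Rab9 is at chrX:166479818-166480117 (minus strand), and Rab3gap2 at chr1:185203918-185204217 (plus strand).
Rab3gap2: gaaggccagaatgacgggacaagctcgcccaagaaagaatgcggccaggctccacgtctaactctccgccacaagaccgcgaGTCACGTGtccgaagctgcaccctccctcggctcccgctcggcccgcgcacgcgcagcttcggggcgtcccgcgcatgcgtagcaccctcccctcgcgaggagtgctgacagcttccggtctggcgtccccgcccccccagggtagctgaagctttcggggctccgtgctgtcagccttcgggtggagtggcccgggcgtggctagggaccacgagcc
Rab7: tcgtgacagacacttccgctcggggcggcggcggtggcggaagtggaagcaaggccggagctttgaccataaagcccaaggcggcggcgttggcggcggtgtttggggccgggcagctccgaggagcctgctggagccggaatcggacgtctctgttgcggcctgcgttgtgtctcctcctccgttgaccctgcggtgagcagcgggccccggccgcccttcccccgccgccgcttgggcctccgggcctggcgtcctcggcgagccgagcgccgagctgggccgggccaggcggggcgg
Rab9: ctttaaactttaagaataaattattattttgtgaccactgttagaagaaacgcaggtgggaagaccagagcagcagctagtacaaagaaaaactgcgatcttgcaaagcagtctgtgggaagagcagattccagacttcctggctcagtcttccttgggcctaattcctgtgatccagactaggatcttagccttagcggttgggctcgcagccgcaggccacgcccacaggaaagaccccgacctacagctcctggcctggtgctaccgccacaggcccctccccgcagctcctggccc

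The E-box core CACGTG, read by MITF, TFE3, TFEB and other basic helix-loop-helix factors, began at position -166 from the Rab3gap2 start, and neither Rab7 nor Rab9 held it in this window. Of the 51 members with a promoter entry, 8 held CACGTG on either strand (15.7%), against 11.7% of the 10070 tested genes with an entry and 7.15% of all 32851 promoters. Shares of members and tested genes count a gene if any of its entries holds the motif. Those of all promoters, here and below, are per entry, so they are not directly comparable. Besides Rab3gap2 they were Rab20, Rab21, Rab23, Rab24, Rab27a, Rab3il1 and Rab5a, none of which was called. The longer form GTCACGTG or CACGTGAC, which contains the core, was in 5 members (9.80%), against 4.70% of tested genes and 2.25% of all promoters. The sterol element type TCACCCCAC was in 1 member, Rab3a (1.96%), against 0.675% of tested genes and 0.551% of all promoters. Of the 10 called members, 7 had an entry and 1 held the core, and Rab7b, Rab30 and Rab38 had no entry.

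In the secretory and lysosome-related group, 0 of 8 tested genes were higher and 2 were lower (25%, close to the 25.4% of all genes tested), and Rab38 was the lower gene with ample counts. Rab38 and its close paralog Rab32 act in the biogenesis of lysosome-related organelles such as melanosomes, in part in place of one another. Rab38 lies on chromosome 7 at 88430273 to 88491572 and overlaps no other gene model. It had 6.98, 6.30 and 5.47 CPM with verapamil, against 17.97 and 17.38 CPM in control libraries. The control libraries were close to each other and every verapamil library was far under them, at 0.354 of the control mean, with a log2 fold change of -1.5 (SE 0.140, adjusted p = 0.00126). Rab32 had 56.8, 55.3 and 62.2 CPM with verapamil and 48.4 and 46.4 CPM in control libraries. Its verapamil libraries were all above the controls, but the log2 fold change of 0.29 (SE 0.105) did not pass the test (adjusted p = 0.0896; 0.0278 at its lowest, in the 2 fits that left out a control library).

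Of the Rab3 genes, which control regulated secretion, Rab3d was the main one by level. Rab3d had 49.7, 48.2 and 47.8 CPM with verapamil and 36.3 and 41.4 CPM in control libraries, with no overlap and a log2 fold change of 0.32 that did not pass (SE 0.109, adjusted p = 0.0762). Rab3b fell, at 0.197, 0.310 and 0.0986 CPM with verapamil and 1.01 and 0.897 CPM in control libraries. These levels rest on 12 counts in the verapamil libraries and 43 in the control libraries, a depth-scaled ratio of 0.212 (95% exact interval 0.102 to 0.410, counting error only). The fitted log2 fold change of Rab3b was -2.20 (SE 0.444, adjusted p = 0.0160), and the adjusted p was 0.0681 and 0.0562 without verapamil replicate 1 and 3. Rab3a had a log2 fold change of -0.49 (adjusted p = 0.106) and also lay without overlap below its controls.

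Rab27a and Rab27b, which dock secretory granules, and Rab44, a large Rab with EF-hands known from mouse osteoclasts, were all near the floor of detection. Rab27a had 0.551, 0.541 and 0.655 CPM with verapamil, against 0.343 and 0.469 CPM in control libraries, and did not pass (log2 fold change 0.44, adjusted p = 0.398). Rab27b had 0.0669, 0.454 and 0.202 CPM with verapamil, against 0.667 and 1.01 CPM in control libraries, a total of 14 counts against 39 and a ratio of 0.273 (95% exact interval 0.137 to 0.515). The interval covers counting error only, and the test over libraries gave a log2 fold change of -1.84 (SE 0.647, adjusted p = 0.0864; 0.0477 without control replicate 1). Rab44 had 1 count in the verapamil libraries and 15 in the control libraries, a ratio of 0.0508 (95% exact interval 0.00121 to 0.330), and was too low to be tested. Rab29, a Rab of lysosomal stress and trans-Golgi sorting, had a log2 fold change of -0.20 (adjusted p = 0.393) with overlapping groups, and it became 0.03 when control replicate 1 was left out and -0.39 (adjusted p = 0.0206) when control replicate 3 was.

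**Figure D3:**
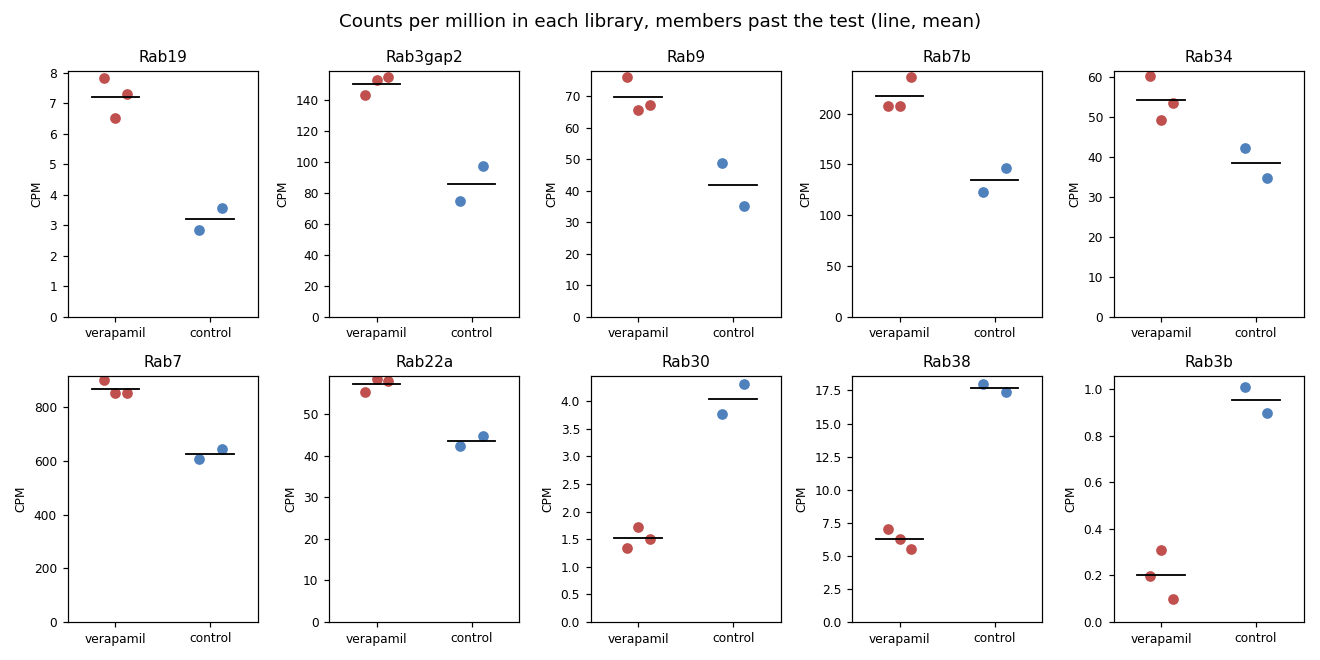
CPM in each library for the 10 members that passed the test, with verapamil libraries (n = 3) left of control libraries (n = 2), a line at each mean and each axis starting at 0. Every verapamil library lies on one side of both control libraries in all 10 panels, and Rab3b and Rab30 are the panels with the fewest counts.

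In the endoplasmic reticulum and Golgi group, 13 of 14 members were tested, with 1 higher and 1 lower (15.4%, against 25.4% of all genes tested). Rab19, a little-studied Rab placed at the Golgi, was higher, at 7.82, 6.51 and 7.30 CPM with verapamil and 2.83 and 3.55 CPM in control libraries. Every verapamil library was above both controls, by 2.26-fold of the mean, and edgeR gave a log2 fold change of 1.17 (SE 0.180, adjusted p = 0.00621). Rab30, a Golgi Rab, was lower, at 1.34, 1.72 and 1.502 CPM with verapamil and 3.78 and 4.31 CPM in control libraries. The groups were far apart for its low level, with a log2 fold change of -1.43 (SE 0.203, adjusted p = 0.00481). Rab19, on chromosome 6 at 39380709 to 39390666, and Rab30, on chromosome 7 at 92741637 to 92844535, overlap no other gene model. Together with Rab38, these were the 3 members called under each of the 11 alternatives tried.

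The abundant Rabs of this early secretory route did not pass. Rab1a had 350, 336 and 343 CPM with verapamil and 292 and 270 CPM in control libraries, with no overlap and a log2 fold change of 0.29 (SE 0.0917, adjusted p = 0.0660; called without either control). Rab1b had a log2 fold change of 0.13 (SE 0.0953, adjusted p = 0.336), and Rab2a, at 124, 117 and 125 CPM with verapamil and 159 and 130 CPM in control libraries, had -0.24 (SE 0.117, adjusted p = 0.171; 0.00197 without control replicate 3). Rab6a and Rab6b, of Golgi transport, Rab18, of lipid droplets and the endoplasmic reticulum, Rab33b, of Golgi and autophagy, Rab2b, Rab43 and Rab39 ranged from -0.34 to 0.34 on the log2 scale. Rab33a was carried by 30 counts with verapamil and 8 in control libraries, a ratio of 2.86 (95% exact interval 1.28 to 7.21, counting error only), and the test over libraries did not pass (adjusted p = 0.252; 0.00726 without control replicate 3, which leaves a control with 0 counts). Rab36 was too low to be tested. Of the exon bases of Rab43 and Rab2b, 75.4% and 64.0% lie over other gene models, so their levels are uncertain.

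In the early endosome and phagosome group, 1 of 8 members was higher and 0 were lower (12.5%, against 25.4% of all genes tested). DESeq2 called 3 of them higher, adding Rab5b (adjusted p = 0.0319) and Rab21 (adjusted p = 0.0450), an early endosome Rab named after its values were seen, to Rab22a. That test called 27.9% of all genes. Rab22a, an early endosome Rab of endocytic recycling on chromosome 2 at 173659836 to 173702186, had 55.4, 58.4 and 58.0 CPM with verapamil and 42.4 and 44.8 CPM in control libraries. Each group was tight and the groups did not overlap, with a log2 fold change of 0.39 (SE 0.0987, adjusted p = 0.0324). The call was lost with upper quartile scaling (adjusted p = 0.0766) and without verapamil replicate 1, 2 or 3 (adjusted p = 0.111, 0.164 and 0.163). Rab5b had 237, 248 and 233 CPM with verapamil, against 132 and 202 CPM in control libraries. Its verapamil libraries were alike while its controls stood far apart, and the log2 fold change of 0.52 did not pass (SE 0.183, adjusted p = 0.0853). With control replicate 1 left out, the log2 fold change of Rab5b was 0.25 (adjusted p = 0.0252), and with control replicate 3 left out it was 0.86 (adjusted p = 3.14e-05), so its size rests on which control is used.

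Rab5c and Rab5a moved little. Rab5c had 314, 308 and 307 CPM with verapamil and 305 and 320 CPM in control libraries, overlapping, with a log2 fold change of -0.01 (SE 0.0871, adjusted p = 0.921). Rab5a had 98.8, 103 and 99.5 CPM with verapamil and 85.0 and 96.5 CPM in control libraries, with a log2 fold change of 0.15 (SE 0.101, adjusted p = 0.316; 0.0189 without control replicate 3). Rab31 overlapped between the groups (log2 fold change 0.13, SE 0.108, adjusted p = 0.385; 0.0125 without control replicate 3). Rab20, a Rab of phagosome maturation, was the lowest of the group in fold change, at 29.2, 27.7 and 34.6 CPM with verapamil and 41.0 and 37.1 CPM in control libraries. Its groups did not overlap, and the log2 fold change of -0.36 did not pass (SE 0.135, adjusted p = 0.104; 0.0187 without control replicate 3).

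None of the 11 recycling and plasma membrane members was called by edgeR, against 25.4% of all genes tested, 1 had an unadjusted p under 0.05, and DESeq2 called 0. The groups did not overlap at 3 of them (27.3%), against 56.7% of all genes tested. Rab8b had 402, 424 and 419 CPM with verapamil and 338 and 376 CPM in control libraries, with no overlap and a log2 fold change of 0.22 (SE 0.0965, adjusted p = 0.148; 0.00598 without control replicate 3). Rab10 had 197, 199 and 203 CPM with verapamil and 188 and 227 CPM in control libraries, and its log2 fold change of -0.06 (SE 0.111, adjusted p = 0.725) became 0.09 without control replicate 3. Rab11a, of the recycling endosome, had 98.0, 88.9 and 103 CPM with verapamil and 124 and 93.8 CPM in control libraries, where control replicate 1 alone stood high. Its log2 fold change was -0.17 (SE 0.146, adjusted p = 0.4), and it became 0.05 when control replicate 1 was left out and -0.36 when control replicate 3 was (adjusted p = 0.00731). Rab13, a Rab of junctional and surface traffic, showed the same arrangement, at 11.1, 10.6 and 12.2 CPM with verapamil and 14.97 and 11.23 CPM in control libraries. Its log2 fold change of -0.21 (SE 0.161, adjusted p = 0.360) became 0.02 when control replicate 1 was left out and -0.40 when control replicate 3 was (adjusted p = 0.0181). Rab35, of fast endocytic recycling, was nearly equal in all libraries, at 73.4, 72.4 and 71.1 CPM with verapamil and 72.9 and 71.8 CPM in control libraries.

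None of the 5 members with ciliary or other roles was called by edgeR, against 25.4% of all genes tested, and 3 had an unadjusted p under 0.05. DESeq2, which called 27.9% of all genes, called 1 of them lower. That gene was Rab23, a Rab of ciliary hedgehog signalling, named after its values were seen, at 6.20, 5.42 and 3.61 CPM with verapamil and 8.27 and 8.83 CPM in control libraries. Its groups did not overlap, and edgeR gave a log2 fold change of -0.75 (SE 0.235, adjusted p = 0.0616; 0.0307 and 0.0335 without control replicate 1 and 3). The log2 fold changes of the other 4 ranged from -1.26 for Rab40b, with 14 counts in verapamil and 26 in control libraries, to 0.26 for Rab28.

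Among the 10 partner proteins, 1 was higher and 0 were lower of 9 tested (11.1%, against 25.4% of all genes tested). Rab3gap2 and Rab3gap1 are the subunits of one complex, a GTPase-activating protein for Rab3 and an exchange factor for Rab18. Rab3gap2, on chromosome 1 at 185204088 to 185286756, had 143, 153 and 155 CPM with verapamil and 74.8 and 97.2 CPM in control libraries. All verapamil libraries were above both controls, by 1.75-fold of the mean, with a log2 fold change of 0.81 (SE 0.137, adjusted p = 0.00901; 0.0501 without verapamil replicate 3). Of its exon bases, 19.3% lie over other gene models, mainly Iars2. Rab3gap1 had 57.3, 56.9 and 55.1 CPM with verapamil and 29.7 and 45.1 CPM in control libraries, and its log2 fold change of 0.59 did not pass with edgeR (SE 0.184, adjusted p = 0.0613), whereas DESeq2 called it higher (0.60, adjusted p = 0.0155). As for Rab5b, the controls of Rab3gap1 stood apart, and its log2 fold change became 0.33 (adjusted p = 0.0166) when control replicate 1 was left out and 0.93 (adjusted p = 6.47e-05) when control replicate 3 was.

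The remaining partners lay between -0.22 for Rab5if and 0.44 for Rab11fip2 on the log2 scale. Rab5if had 114, 93.4 and 102 CPM with verapamil and 136 and 105 CPM in control libraries, overlapping, with a log2 fold change of -0.22 (SE 0.150, adjusted p = 0.306; 0.0101 without control replicate 3). The Rab11 family interacting proteins Rab11fip1, Rab11fip2, Rab11fip3 and Rab11fip5, which link recycling endosomes to motors, did not pass (adjusted p 0.165 to 0.905). Neither did Rab3il1 and Rab3ip, exchange factors of Rab8, at 0.09 and 0.15 on the log2 scale.

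Within sets of close paralogs, the balance between Rab32 and Rab38 differed most among those with ample counts. Rab38 made up 15.4%, 14.4% and 11.5% of the summed RPKM of this pair with verapamil, against 35.5% and 35.7% in control libraries. The groups were far apart beside a spread of 2.02 (SD, n = 3) with verapamil and 0.146 (SD, n = 2) in control libraries, in percentage points. Rab3d made up 89.1%, 88.9% and 88.1% of the Rab3a, Rab3b and Rab3d sum with verapamil, against 77.3% and 83.3% in control libraries. Rab5b made up 25.9%, 27.0% and 25.9% of the Rab5 sum with verapamil, against 16.8% and 22.6% in control libraries. For Rab3d and Rab5b the groups were separate, but the controls differed from each other by more than the verapamil libraries did.

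The balances of the other sets moved by less than 3 percentage points, apart from those of Rab27 and Rab33, which rest on few counts. Rab1a held 48.6%, 49.9% and 50.2% of the Rab1 sum with verapamil and 47.2% and 46.5% in control libraries. Rab22a held 9.60%, 9.86% and 10.4% of its sum with Rab31 with verapamil and 8.90% and 8.04% in control libraries. The share of Rab7b beside Rab7 was 11.5%, 12.1% and 13.5% with verapamil and 10.2% and 11.3% in control libraries, so that the groups nearly touched. Rab11b beside Rab11a (42.2%, 42.8% and 39.0% with verapamil, 40.2% and 41.9% in control libraries) and Rab8b beside Rab8a (76.9%, 78.8% and 77.4% with verapamil, 74.9% and 77.2% in control libraries) overlapped. These shares are given without a test of their own, since each of the 14 sets shares its genes with the results above.

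**Figure D4:**
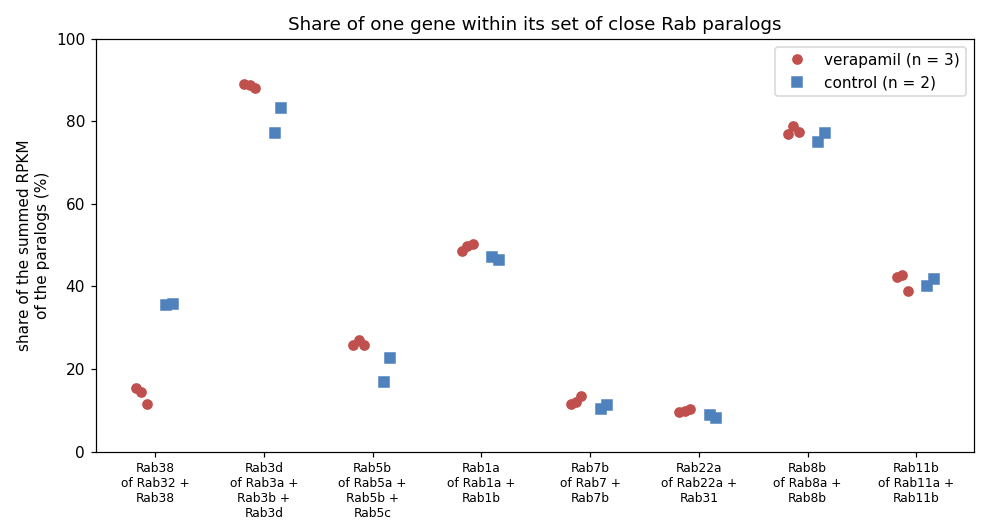
Share of 1 gene in the summed RPKM of its set of close paralogs, in percent, for each verapamil library (circles, n = 3) and each control library (squares, n = 2). Rab38 falls to between 11.5% and 15.4% of the Rab32 and Rab38 sum with verapamil, against 35.5% and 35.7% in control libraries, and Rab11b overlaps.

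Genes for proteins that regulate or serve Rabs were described by lists, of which the endosomal and lysosomal effectors moved most. Over all lists, counting each gene 1 time, 37 of 172 tested genes were higher and 9 lower (26.7%), close to the 25.4% of all genes, with a median log2 fold change of 0.31 beside -0.01 over all genes tested. Of the 40 endosomal and lysosomal effectors, 15 were higher and 2 lower (42.5%), with a median of 0.46. The count of higher effectors was 4, 4 and 3 without verapamil replicate 1, 2 and 3, in fits that called 11.8%, 12.4% and 11.6% of all genes. Rilpl2, which binds phosphorylated Rab8 and Rab10 and the motor myosin Va, had 455, 375 and 408 CPM with verapamil and 154 and 122 CPM in control libraries. Its groups were far apart (log2 fold change 1.58, SE 0.150, adjusted p = 0.00128). Rab8a, Rab8b and Rab10 stand in the recycling group of members, so Rilpl2 could also be counted with the recycling effectors. Wdr91, a Rab7 effector of endosome maturation, had 202, 214 and 207 CPM with verapamil and 98.1 and 130 CPM in control libraries (log2 fold change 0.87, SE 0.139, adjusted p = 0.00738). Rufy4, a Rab7-binding protein, fell to 4.18, 4.24 and 3.55 CPM with verapamil, against 11.9 and 14.3 CPM in control libraries (log2 fold change -1.72, SE 0.158, adjusted p = 0.00121).

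Further Rab7 partners, named after their values were seen, are given for comparison with Rab7. Vps11 and Vps18, core subunits of the HOPS tether, had log2 fold changes of 0.50 (adjusted p = 0.0146) and 0.60 (adjusted p = 0.00577), and Osbpl1a, which reads cholesterol on late endosomes, had 0.83 (adjusted p = 0.0125). The other HOPS subunits listed, Vps16, Vps33a, Vps39 and Vps41, did not pass, at 0.08, 0.48, 0.42 and 0.31 (adjusted p = 0.597, 0.101, 0.0924 and 0.0813). Nor did Rilp, the Rab7 effector that recruits dynein, at -0.58 (adjusted p = 0.103). When any 1 library was left out, the directions of these genes stayed the same. Their log2 fold changes were then 0.01 to 0.17 for Vps16, 0.22 to 0.81 for Vps33a and 0.21 to 0.68 for Vps39. Those of Vps41 and Rilp were 0.2 to 0.42 and -0.79 to -0.34. Plekhm1, an effector required for bone resorption, had 196, 200 and 190 CPM with verapamil and 145 and 157 CPM in control libraries, separate groups with a log2 fold change of 0.37 (SE 0.0939, adjusted p = 0.0330). Lrrk1, a kinase of Rab7 known from osteoclasts, had 34.4, 38.5 and 38.0 CPM with verapamil and 45.2 and 57.0 CPM in control libraries, with a log2 fold change of -0.47 (SE 0.135, adjusted p = 0.0495). Without verapamil replicate 1, 2 or 3, Vps11, Osbpl1a, Plekhm1 and Lrrk1 were not called (highest adjusted p 0.0923, 0.0594, 0.171 and 0.170), and Vps18 was not called without verapamil replicate 3 (adjusted p = 0.0507). Mon1a, Mon1b and Ccz1, which form the exchange factor of Rab7, did not pass, with log2 fold changes of 0.11, 0.31 and 0.28 (adjusted p = 0.576, 0.2 and 0.0890). Of these, Ccz1 ranged from 0.24 to 0.32 and Mon1b from 0.1 to 0.56 when any 1 library was left out. Mon1a was -0.01 without control replicate 3.

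Of the 21 recycling and secretory effectors tested, 4 were higher and 3 lower (33.3%, against 25.4% of all genes tested), with a median of 0.13. The list includes 5 members, of which Rab11fip4 was too low to be tested. Myo5a, the motor myosin Va that carries Rab27 and Rab11 cargo, had 1468, 1897 and 1752 CPM with verapamil, against 454 and 708 CPM in control libraries. All verapamil libraries were above both controls (log2 fold change 1.55, SE 0.221, adjusted p = 0.00482). Mlph, which couples Rab27a to that motor, had 0.519, 0.697 and 0.394 CPM with verapamil and 0.0652 and 0.190 CPM in control libraries (log2 fold change 2.23, SE 0.608, adjusted p = 0.0420). Sytl4, another Rab27 effector, had 0.295, 0.315 and 0.346 CPM with verapamil and 0.737 and 1.08 CPM in control libraries (log2 fold change -1.48, SE 0.356, adjusted p = 0.0284). These last pair of genes sat under or near 1 CPM, and leaving out a library took their adjusted p to at most 0.116 and 0.0995 where they were still tested. DESeq2 called neither.

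Of the 40 exchange factors tested, which include 4 members, 7 were higher and 1 lower (20%, against 25.4% of all genes tested), with a median of 0.28. DESeq2, which called 27.9% of all genes, called 12 higher and 1 lower. Dennd3, the exchange factor of Rab12, had 2.36, 3.41 and 3.27 CPM with verapamil and 0.539 and 0.598 CPM in control libraries (log2 fold change 2.39, SE 0.289, adjusted p = 0.00278). Dennd2d, of the family that acts on Rab9, had 4.90, 4.88 and 7.02 CPM with verapamil and 2.16 and 1.82 CPM in control libraries (log2 fold change 1.48, SE 0.243, adjusted p = 0.00785). Both stood clear of the controls and stayed called without any 1 library, whereas Rin1, a Rab5 exchange factor, was lower with a call that was lost without any of the 3 verapamil libraries. Rin1 had 2.12, 2.41 and 2.00 CPM with verapamil and 3.91 and 6.87 CPM in control libraries (log2 fold change -1.30, SE 0.276, adjusted p = 0.0187; at most 0.0798 without a library). Hps1 and Hps4, which form the exchange factor of Rab32 and Rab38 and were named after their values were seen, did not pass, at 0.05 (adjusted p = 0.763) and 0.34 (adjusted p = 0.0625; 0.0210 at the lowest, when a control was left out). Hps1 was -0.07 with upper quartile scaling. Dennd4c, an exchange factor of Rab10 and likewise named after its values were seen, had a log2 fold change of 1.26 (adjusted p = 0.0158; at most 0.0594 without a verapamil library).

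Of the 35 GTPase-activating proteins tested, 8 were higher and 2 lower (28.6%, near the 25.4% of all genes tested), with a median of 0.32. Tbc1d2, also known as Armus and active on Rab7, had 36.4, 35.8 and 35.6 CPM with verapamil and 12.4 and 14.3 CPM in control libraries. Its libraries were tight within each group (log2 fold change 1.43, SE 0.117, adjusted p = 0.000865), and it stayed called without any 1 library. Tbc1d16, active on Rab4, had 30.0, 36.8 and 34.0 CPM with verapamil and 11.6 and 19.2 CPM in control libraries (log2 fold change 1.12, SE 0.229, adjusted p = 0.0165; at most 0.0628 without a verapamil library). Tbc1d15, another protein active on Rab7 and named after its values were seen, rose by 0.57 (SE 0.126, adjusted p = 0.0211; at most 0.0997 without a verapamil library). Sgsm1 was lower, at 0.219, 0.396 and 0.187 CPM with verapamil and 0.641 and 1.04 CPM in control libraries (log2 fold change -1.61, SE 0.467, adjusted p = 0.0498; at most 0.163 without a library). The count of higher genes was 2 without any 1 of the verapamil replicates, in fits that called 11.6% to 12.4% of all genes. It was 13 by DESeq2, which called 27.9% of all genes.

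Of the 20 Golgi effectors tested, 3 were higher and 1 lower (20%, against 25.4% of all genes tested), with a median of 0.25. Golga4, a golgin that captures vesicles, had 127, 158 and 147 CPM with verapamil and 60.7 and 100 CPM in control libraries (log2 fold change 0.84, SE 0.226, adjusted p = 0.0404). Kif1c, a kinesin linked to Rab6, rose by 0.55 (SE 0.141, adjusted p = 0.0355). Kif20a, a mitotic kinesin that also binds Rab6, had 2.49, 2.11 and 2.76 CPM with verapamil and 4.65 and 7.22 CPM in control libraries (log2 fold change -1.26, SE 0.245, adjusted p = 0.0141). Of the exon bases of Kif20a, 29.3% lie over Cdc23. Without a verapamil library, the highest adjusted p was 0.130 for Golga4, 0.132 for Kif1c and 0.0629 for Kif20a. The count of higher Golgi effectors was 0 without any 1 of the verapamil replicates, in fits that called 11.6% to 12.4% of all genes.

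The machinery shared by all Rabs did not change by the test. None of the 10 genes for prenylation, escort and GDI proteins was called by edgeR, against 25.4% of all genes tested, 2 had an unadjusted p under 0.05 and DESeq2 called 0. Gdi2, the abundant GDP dissociation inhibitor, had 629, 594 and 598 CPM with verapamil and 642 and 592 CPM in control libraries, which overlapped. None of the 6 tested Rab-like GTPases was called by edgeR, against 25.4% of all genes tested, 0 had an unadjusted p under 0.05 and DESeq2 called 0.

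**Figure D5:**
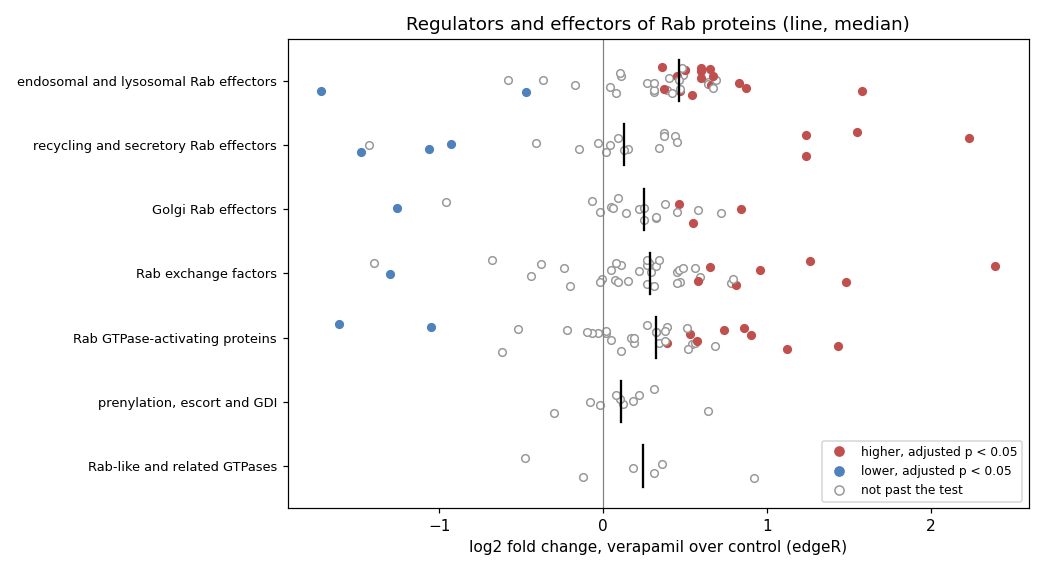
Log2 fold change, verapamil (n = 3) over control (n = 2), of each tested gene of the 7 lists of Rab regulators and effectors, with a line at each list's median. Filled points passed the test at an adjusted p under 0.05: 15 higher and 2 lower among the endosomal and lysosomal effectors, and none among the prenylation and Rab-like genes.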

How the data were processed

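RNA of osteoclast cultures was sequenced in the study, after Trizol extraction of RNA and library preparation with a SMARTER kit, per the labels' protocols. The authors deposited estimated counts per gene, which hold decimals and whose values look unnormalized. Per the submitters' processing notes, the builds were GRCm38 and mm10; no aligner, counter, annotation or use of strand is given in the sources used here. Labels describe 6 libraries. Control replicate 2 was not analysed here, so a test planned for 3 against 3 became 3 verapamil against 2 control libraries.

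Estimated counts were rounded before the fit. With edgeR 4.0.16 under R 4.3.3, libraries were scaled by TMM, filtered with filterByExpr and fitted by quasi-likelihood with a term for group (12619 genes, 3 residual and 3.28 prior degrees of freedom, biological coefficient of variation 15.3%). Calls used a Benjamini-Hochberg adjusted p under 0.05 over all genes tested. CPM, the log2 scale and RPKM were computed from the deposited counts, RPKM with merged GENCODE exons of GRCm38. Each SE was derived from the fold change and its F statistic (size over root F), so it restates the test. Genes were named where they were called with a log2 fold change of at least 0.5 in size, were among the 10 highest in RPKM or were on a short list of osteoclast and macrophage Rabs, and, from each list of regulators, where they were the 3 called genes with the largest change; others are named with their groups or as chosen after their values were seen. The members and lists were chosen with earlier results of these data known. Roles were assigned by hand. Alternatives were median-ratio (RLE) and upper quartile scaling, no filter, a stricter filter, the DESeq2 1.42.0 Wald test, leaving out each library, and the replicate number as a block. Exact intervals and totals of counts cover counting error only.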

Additional observations from a re-analysis of the deposited data

How the results depend on the processing

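With 2 controls that differ from each other, 3 residual degrees of freedom and low counts at Rab3b, Rab27b, Rab33a and Rab44, counts of calls moved with the libraries used. A fit without a verapamil library has fewer residual degrees of freedom, and over all genes 11.8%, 12.4% and 11.6% were called without verapamil replicate 1, 2 and 3. A fit without a control leaves 1 control library, assumed to vary like the verapamil libraries, and 35.3% and 60.9% of all genes were called without control replicate 1 and 3. Leaving out each library gave 1 to 29 members higher (7 with all libraries) and 2 to 13 lower (3), 1 to 24 Rab GTPases higher (6) and 2 to 12 lower (3), and 0 to 4 late endosome and lysosome members higher (4) and 0 to 1 lower (0). For the lists it gave 0 to 15 Golgi effectors higher (3) and 0 to 3 lower (1), 2 to 23 GTPase-activating proteins higher (8) and 1 to 5 lower (2), 3 to 25 exchange factors higher (7) and 0 to 5 lower (1), 0 to 1 Rab-like genes higher (0) and 0 to 1 lower (0), 3 to 32 endosomal and lysosomal effectors higher (15) and 1 to 3 lower (2), 0 to 4 prenylation, escort and GDI genes higher (0) and 0 to 1 lower (0), and 3 to 11 recycling and secretory effectors higher (4) and 0 to 5 lower (3). Upper quartile scaling gave 4 members, 3 Rab GTPases and 2 late endosome and lysosome members higher, and 2 Golgi effectors, 4 GTPase-activating proteins, 2 exchange factors and 1 prenylation, escort and GDI gene lower. DESeq2 gave 5 Golgi effectors, 13 GTPase-activating proteins and 12 exchange factors higher and 2 Golgi effectors lower, beside 10 members higher and 4 lower. It called 27.9% of all genes. Without the filter on low counts, 1 GTPase-activating protein and 1 endosomal and lysosomal effector were lower, and with the stricter filter 1 GTPase-activating protein was lower. The cause of these shifts was not tested. Among genes that were not called, directions reversed with upper quartile scaling for Hps1 (-0.07), Mon1a (-0.02), Vps16 (-0.04), Rab11fip1 (-0.02), Rab11fip5 (-0.1), Rab18 (0.00 after rounding), Rab3il1 (-0.03), Rab4b (-0.06), Rab6a (-0.06) and Rab8a (-0.03), and for Rab5c (0.00) without the filter. Rab35 was at 0.01 with RLE scaling, without the filter and with DESeq2, and at -0.12 with upper quartile scaling. Leave-one-out log2 fold changes crossed 0 for 18 genes, from -0.01 to 0.24 for Mon1a, -0.08 to 0.04 for Gdi2, -0.18 to 0.09 for Rab10, -0.36 to 0.05 for Rab11a, -0.3 to 0.01 for Rab11b, -0.23 to 0.5 for Rab11fip1, -0.08 to 0.14 for Rab11fip5, -0.4 to 0.02 for Rab13, -0.01 to 0.25 for Rab18, -0.36 to 0.08 for Rab24, -0.39 to 0.03 for Rab29, -0.01 to 0.01 for Rab35, -0.16 to 0.07 for Rab40c, -0.52 to 0.03 for Rab42, -0.22 to 0.16 for Rab4a, -0.06 to 0.21 for Rab4b, -0.04 to 0.02 for Rab5c and -0.12 to 0.27 for Rab6a. Over the 59 tested members and the listed genes named with values, 829 values kept their direction and side of the threshold, 75 were no longer called, 58 were newly called and 35 reversed.

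Replicate numbers are shared between the groups, but the labels tie no number to an animal or day, and only replicates 1 and 3 form pairs. Deviations from the group means correlated at 0.289 for replicate 1 and 0.0224 for replicate 3. With 2 controls, the deviations from their mean mirror each other, so these are not separate checks and cannot tell whether the numbers pair the libraries. The number was used as a block only as an alternative. With the number as a block, 26.3% of all genes were called, and 7 members were higher and 6 lower, of which 6 lower were Rab GTPases. The calls of Rab7 (adjusted p = 0.0677), Rab22a (0.177), Plekhm1 (0.196), Vps11 (0.0612) and Lrrk1 (0.0757) were lost. Newly called were Rab27b (adjusted p = 0.00084), Rab15 (0.0435) and Rab23 (0.00751), lower, and Rab5b (0.0392) and Rab3gap1 (0.0179), higher, and Rab11fip5 was -0.01. Under the block, 11 exchange factors, 1 Rab-like gene and 1 prenylation, escort and GDI gene were higher, and 2 Golgi effectors and 1 endosomal and lysosomal effector were lower.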
